A study of Mus musculus with 4 samples.

Results

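Calca, the receptor genes through which its peptide and related neuropeptides act, and Chat were examined in RNA sequencing libraries of activated group 2 innate lymphoid cells (ILC2s) sorted from mouse lung. The 9 genes were taken by symbol from the deposited tables of 22558 genes: the ligand gene Calca, the receptor chain gene Calcrl, its partner genes Ramp1, Ramp2 and Ramp3, the neuromedin U receptor gene Nmur1, the vasoactive intestinal peptide receptor genes Vipr1 and Vipr2, and the acetylcholine synthesis gene Chat. None of the 9 encodes an adrenergic receptor, and genes of noradrenaline and dopamine signalling are given here as a list beside them. The WT group was 2 libraries from C57BL/6 mice, and the other group was 2 libraries labelled ICAM-1 KO, called KO-labelled here, which the study describes as from ICAM-1 deficient mice (B6.129S4-Icam1 tm1Jcgr/J). All mice were 6 weeks old and received 3 intranasal doses of 0.5 µg rmIL-33, and lung cells negative for lineage markers and positive for CD45, ST2 and CD127 were sorted on day 4 from pools of 4 mice. Each library was 1 pool, so the SD of 2 libraries describes the spread between pools and not between single animals, and there was no group without rmIL-33.

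ILC2s lie close to nerve endings in the lung, and their cytokine release is tuned by peptides and transmitters that nerves, neuroendocrine cells and lymphocytes release. Neuromedin U, acting on NMUR1, and vasoactive intestinal peptide, acting on VIPR1 and VIPR2, raise type 2 cytokine release, and noradrenaline restrains it. Calcitonin gene-related peptide (CGRP), the peptide that Calca encodes in nerves, acts on a receptor made of the calcitonin receptor-like chain (Calcrl) and RAMP1. The same chain joined to RAMP2 or RAMP3 binds adrenomedullin, and the pair with RAMP2 is typical of endothelial cells.

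The Calca gene spans positions 114631478 to 114636357 of chromosome 7 in mm10, on the minus strand. It has 7 annotated transcripts, of which 6 are coding, and its precursor RNA is spliced into either CGRP or calcitonin, the thyroid hormone that lowers blood calcium. The 2 ends of the coding sequence are shown because the deposited counts are one value per gene and hold both products. In each line the lower-case bases are the end of the exon at 114634468 to 114634608 that both transcripts share. The capitals are the coding bases of the exon that follows, 157 bases from 114632443 to 114632599 for CGRP and 181 bases from 114633605 to 114633785 for calcitonin.

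Calca-201 (CGRP): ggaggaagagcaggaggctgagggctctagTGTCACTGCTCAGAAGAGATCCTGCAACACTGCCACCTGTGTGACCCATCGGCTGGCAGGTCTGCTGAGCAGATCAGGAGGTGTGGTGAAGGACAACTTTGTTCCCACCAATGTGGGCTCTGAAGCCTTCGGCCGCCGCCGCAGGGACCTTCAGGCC
Calca-202 (calcitonin): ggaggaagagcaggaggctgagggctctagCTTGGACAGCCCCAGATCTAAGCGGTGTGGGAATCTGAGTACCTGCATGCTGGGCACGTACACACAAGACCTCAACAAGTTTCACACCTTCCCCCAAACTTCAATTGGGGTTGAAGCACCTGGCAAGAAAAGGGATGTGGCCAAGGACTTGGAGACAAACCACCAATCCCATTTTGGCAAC

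The 250 bases before the Calca start in the RefSeq promoter table (GRCm38.p6, chr7:114636358-114636607, minus strand) are shown since Calca was the most abundant of the 9 genes and differed between the groups. The capitals mark TGACG, the core of the cyclic AMP response element, from base 186 on the strand shown, and a match to AGATAA, which GATA factors recognise, on the opposite strand from base 33. On either strand, TGACG occurred in 17.8% and AGATAA in 9.99% of 32851 promoter windows of this length, so both are common. Of the motifs searched on both strands, TGACGTCA, which contains TGACG, occurred in 1.55% of the windows and TGATAA in 7.94%, and neither has a match in the Calca window. Of the 9 genes, 8 were found in the promoter table. The windows of Ramp1 (250 bases) and Calcrl (105 bases) were searched for the same motifs and held no match.

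Calca promoter: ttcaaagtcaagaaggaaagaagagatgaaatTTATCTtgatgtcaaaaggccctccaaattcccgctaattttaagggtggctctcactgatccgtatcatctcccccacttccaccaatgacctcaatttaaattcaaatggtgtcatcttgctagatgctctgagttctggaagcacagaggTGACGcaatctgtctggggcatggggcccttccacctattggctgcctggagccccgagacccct

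Icam1 RNA was first read in every library, as a check of the labels. It had a normalized count (the authors' count scaled to a common upper quartile) of 85.2 and 83.3 in the WT libraries and of 97.6 and 110.03 in the KO-labelled libraries. Its log2 fold change was 0.33 (standard error, SE, 0.108, adjusted p = 0.0745, edgeR's quasi-likelihood test, Benjamini-Hochberg adjustment), so Icam1 RNA was not lower in the KO-labelled libraries, and a count over the whole gene does not show whether the RNA encodes the protein. The libraries held 24796148 to 28782471 counts.

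Of the 9 genes, 7 were abundant enough to be tested and 4 of these differed between the groups, all at an adjusted p under 0.05. Ramp2 and Calcrl were higher in the KO-labelled libraries, and Calca and Ramp1 were lower. Nmur1, Vipr2 and Ramp3 did not pass the test, Vipr1 had too few counts to be tested and Chat had no count in any library. Among all 11711 genes tested, 13.8% passed the same threshold, 8.8% as higher and 4.97% as lower. The median log2 fold change was -0.17 over the 7 genes and 0.01 over all genes tested. A change of at least 2-fold was also reached by Ramp2, where the background was 4.94% of all genes as higher and 0.538% as lower. The values of the 2 groups did not overlap for 5 of the 7 genes, against 59.5% of all genes tested.

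**Figure D1:**
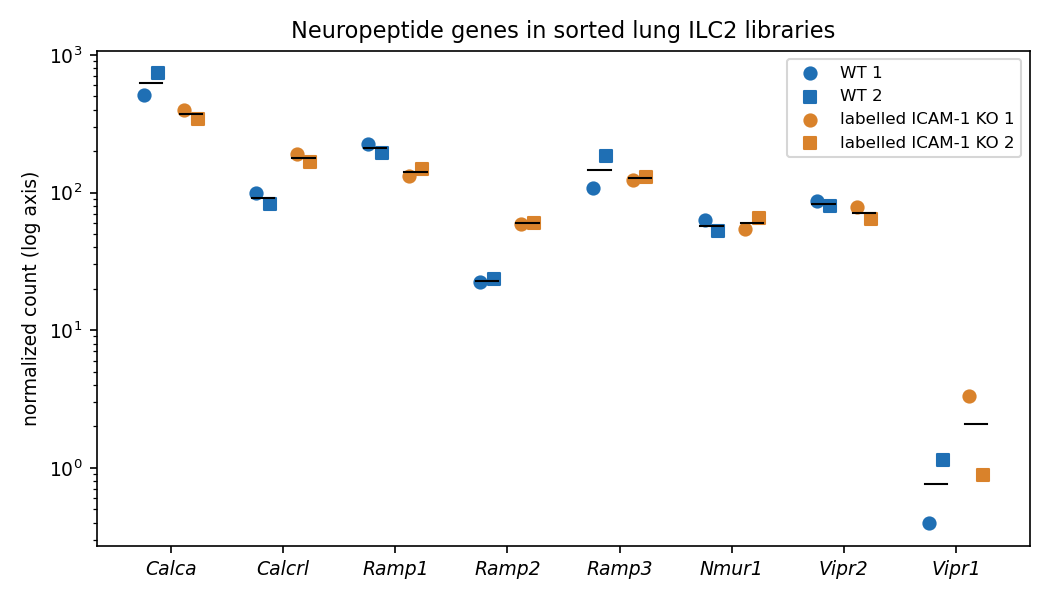
Normalized counts (log axis) of the 8 genes with counts in the 4 libraries, with 1 point per library and a line at the mean of each group. Calca stands highest in every library, and the groups are apart for Calca, Calcrl, Ramp1, Ramp2 and Vipr2.

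Calca RNA was abundant in the sorted cells and was lower in the KO-labelled libraries. Its normalized count was 510 and 735 in the WT libraries and 398 and 344 in the KO-labelled libraries. Both KO-labelled libraries lay below both WT libraries, and the WT libraries lay further apart from each other. The mean was 623 ± 159 (SD, n = 2) in WT and 371 ± 37.9 (SD, n = 2) in the other group, 1.65-fold higher in WT. The log2 fold change was -0.72 (SE 0.154, adjusted p = 0.018, edgeR). WT replicate 2 was the highest library, and without it the log2 fold change was -0.43 and was no longer called (adjusted p = 0.076, edgeR). When genes with low counts were kept in, the adjusted p was 0.0803 (edgeR).

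Calca shares no annotated exon or intron with another gene. Per kb of exon, its mean of 295 normalized counts over the 4 libraries exceeded that of 98.7% of the 11337 tested genes with a length, whose median was 6.62. Among the tested genes nearest to Calca in level and pattern, by Euclidean distance over the 4 log2 normalized counts, were Hspd1 at 0.443 and Ero1l at 0.448. They encode a mitochondrial chaperone and an oxidase of the endoplasmic reticulum. Calcb, which encodes the second CGRP peptide, had a normalized count of 0.232 and 0.0317 in the WT libraries and of 0.312 and 0.382 in the KO-labelled libraries, under the minimum for a test. It was looked at after its values were known.

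In the lung, Calca is also made by pulmonary neuroendocrine cells and sensory neurons. Of 14 marker genes of these cells, 8 had no entry in the counts used, 6 were analysed here and 1 was tested. The summed normalized count of these 6 was 5.70 to 10.3 in the WT libraries and 3.07 to 4.27 in the KO-labelled libraries, far under that of Calca. The most abundant of them, Uchl1, a neuronal ubiquitin hydrolase, had 7.56 and 4.31 in WT and 1.49 and 1.53 in the KO-labelled libraries (log2 fold change -1.96, SE 0.474, adjusted p = 0.0289, edgeR), a call that was lost without WT replicate 1 (adjusted p = 0.114, edgeR). The next, Syp and Prph, stayed under 2 in every library.

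Calca was also set against the ILC2 genes, as a description with no test. The summed normalized count of 16 ILC2 markers was 9197 to 9752 in WT and 7887 to 8077 in the KO-labelled libraries, and Calca amounted to 5.55% and 7.54% of it in WT and to 5.04% and 4.26% in the KO-labelled libraries. The most abundant of these markers, the arginase gene Arg1, the regulator gene Id2 and the cytokine gene Il5, had log2 fold changes of -0.65, -0.56 and -0.76. All 16 markers were tested, and 5 were lower (these 3, Il13 and Il2ra), 2 were higher (Klrg1 and Ptprc) and 9 did not pass the test, among them Gata3, which encodes the defining transcription factor, and Il1rl1, which encodes ST2. In bulk libraries, fewer cells of a type and less RNA per cell cannot be told apart.

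Calcrl encodes the 7-transmembrane chain that CGRP and adrenomedullin receptors share, and its RNA was about 2-fold higher in the KO-labelled libraries. The gene spans chromosome 2 from 84330626 to 84425411 on the minus strand. The WT libraries had normalized counts of 99.3 and 82.0, against 189 and 167 in KO-labelled ones. The groups lay well apart, with means of 90.7 ± 12.2 and 178 ± 16.2 (SD, n = 2 each). The log2 fold change was 1.00 (SE 0.118, adjusted p = 0.00155, edgeR), and it lay between 0.87 and 1.14 in 12 alternative analyses, each of which kept the call.

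Ramp1 encodes the partner that turns this chain into the CGRP receptor, and it moved the opposite way. It lies on chromosome 1 from 91179822 to 91225196 on the plus strand. Normalized counts were 223 and 195 in WT, against 133 and 148 under the KO label. The groups did not overlap, and the means were 209 ± 20.3 in WT and 140.5 ± 11.2 in the other group (SD, n = 2 each), 1.46-fold higher in WT. The log2 fold change was -0.55 (SE 0.107, adjusted p = 0.0135, edgeR). The call was lost without WT replicate 1 (log2 fold change -0.44, adjusted p = 0.0757, edgeR) and without a filter on low counts (adjusted p = 0.0555, edgeR). Ramp1 amounted to 2.43% and 2.00% of the summed ILC2 markers in WT and to 1.68% and 1.84% in the KO-labelled libraries.

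Ramp2 encodes the partner of the main adrenomedullin receptor, and it had the largest change of the 7 tested genes. The gene spans chromosome 11 from 101246028 to 101259546 on the plus strand. Its normalized count was 22.2 and 23.4 in WT and 59.2 and 60.1 in the KO-labelled libraries, so the replicates of each group were close together and the groups far apart. The means were 22.8 ± 0.845 and 59.7 ± 0.638 (SD, n = 2 each), a 2.66-fold difference with a log2 fold change of 1.41 (SE 0.133, adjusted p = 0.000656, edgeR). The log2 fold change was 1.35 to 1.45 in 12 alternative analyses, and the call held in each.

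Ramp2 overlaps Vps25, a gene on the same strand that encodes a subunit of the endosomal sorting machinery, and reads of the shared bases can be split between them. Vps25, looked at for this overlap, had a normalized count of 115 and 104 in WT and of 93.5 and 87.6 in the KO-labelled libraries (log2 fold change -0.25, adjusted p = 0.141, edgeR). The 3 tested genes nearest to Ramp2 in level and pattern were Slco2a1, a prostaglandin transporter gene, at a distance of 0.229, Arrdc3, an arrestin family gene, at 0.262, and S100a9, a neutrophil and monocyte gene, at 0.336. Slco2a1 had 21.4 and 21.5 in WT and 66.3 and 63.9 in the KO-labelled libraries.

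Ramp3 encodes the partner of the second adrenomedullin receptor, and its groups overlapped. Its locus is on chromosome 11 from 6658521 to 6677475 on the plus strand and overlaps Gm11978 on the other strand. Its normalized count was 108 and 183 in WT and 124 and 129.5 in the KO-labelled libraries. The KO-labelled libraries lay between the WT libraries, with means of 146 ± 52.9 in WT and 127 ± 3.94 in the other group (SD, n = 2 each) and a log2 fold change of -0.17 (SE 0.201, adjusted p = 0.606, edgeR). The value rested on which WT library was used: it was -0.50 without WT replicate 1 (adjusted p = 0.0442, edgeR) and 0.25 without WT replicate 2 (adjusted p = 0.228, edgeR).

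**Figure D2:**
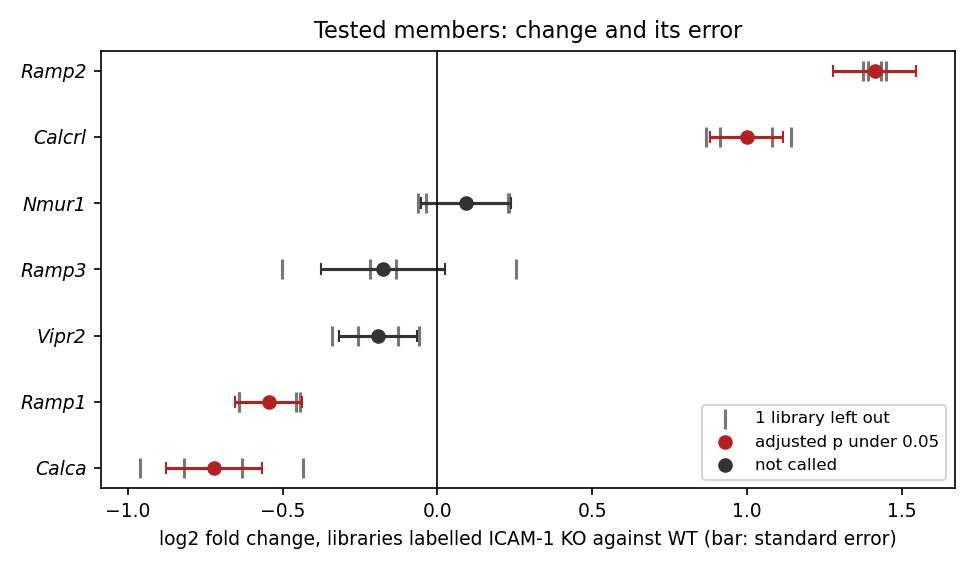
Log2 fold change of the 7 tested genes, KO-labelled libraries against WT, with the standard error as a bar, calls at an adjusted p under 0.05 in red and each value with 1 library left out as a tick. Ramp2 and Calcrl keep their side of 0 by a wide margin, and the ticks of Ramp3 and Nmur1 lie on both sides of 0.

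The receptor chain and its partners were also set side by side per kb of exon, as a description, since Calcrl and Ramp1 had already been called in opposite directions. Calcrl had 20.3 and 16.8 normalized counts per kb in WT and 38.8 and 34.1 in the KO-labelled libraries. Ramp1 had 73.9 and 64.4 in WT and 43.9 and 49.1 in the KO-labelled libraries. The ratio of Ramp1 to Calcrl was thus 3.64 and 3.83 in WT and 1.13 and 1.44 in the KO-labelled libraries. Without scaling to length, Ramp1 lay above Calcrl in WT, at normalized counts of 223 and 195 against 99.3 and 82.0. Under the KO label Ramp1 lay below Calcrl, at 133 and 148 against 189 and 167. The order of Ramp1 and Calcrl in the KO-labelled libraries thus depended on the measure.

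Ramp2 had 6.74 and 7.10 normalized counts per kb in WT and 17.9 and 18.2 in the KO-labelled libraries, and its ratio to Ramp1 was 0.0911 and 0.110 in WT and 0.409 and 0.371 in the KO-labelled libraries. Of the 3 Ramp genes together, Ramp2 made up 4.23% and 3.48% in WT and 11.8% and 11.3% in the KO-labelled libraries. Per kb, Ramp3 was the most abundant of the 3 in every library. Its share was 49.3% and 65.0% in WT and 59.2% and 58.2% in the KO-labelled libraries, where the groups overlapped. Not scaled to length, Ramp1 lay above Ramp3 in every library. The normalized counts were 223 and 195 against 108 and 183 in WT, and 133 and 148 against 124 and 129.5 under the KO label. The order of Ramp1 and Ramp3 thus depended on the measure. The sum of the 3 Ramp genes overlapped between the groups, at 159 and 204 per kb in WT and 152 and 161 per kb in the KO-labelled libraries.

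**Figure D3:**
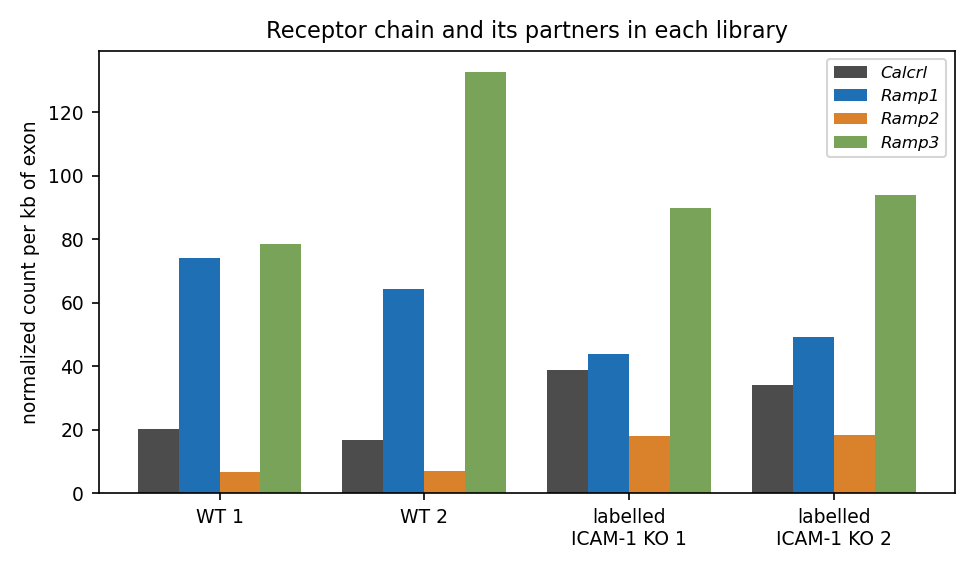
Normalized count per kb of exon of Calcrl, Ramp1, Ramp2 and Ramp3 in each of the 4 libraries, with bars from 0. Per kb, Ramp1 is 3.64 and 3.83 times Calcrl in the WT libraries and 1.13 and 1.44 times Calcrl in the KO-labelled libraries.

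Calcrl and Ramp2 are also genes of endothelium, and markers of endothelium were higher in the same libraries. Of 20 endothelial markers, 18 were tested, 17 were higher, none was lower and 1 did not pass the test, with a median log2 fold change of 1.66. Without WT replicate 1, 11 of them were called. None was at 0 in all libraries, and their summed normalized count was 217 to 252 in WT and 629 to 656 in the KO-labelled libraries. The 3 most abundant were Pecam1, Ptprb and Vwf. Pecam1, an adhesion molecule that some leukocytes also carry, had 48.1 and 54.5 in WT and 103 and 108 in the KO-labelled libraries (log2 fold change 1.07, adjusted p = 0.00112, edgeR), and the endothelial phosphatase gene Ptprb and the von Willebrand factor gene Vwf had log2 fold changes of 2.51 and 1.71. The sort was for CD45, which endothelial cells lack, and the source of this marker RNA was not tested.

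The ratio of Ramp2 to the summed endothelial markers was 0.103 and 0.0931 in WT and 0.0941 and 0.0916 in the KO-labelled libraries. Its values overlapped between the groups, whereas the ratio of Ramp2 to Pecam1 alone was 0.462 and 0.430 in WT and 0.573 and 0.555 in the KO-labelled libraries, higher and without overlap. The ratio of Calcrl to the same sum was 0.458 and 0.326 in WT and 0.301 and 0.254 in the KO-labelled libraries, lower and without overlap, but its ratio to Pecam1 overlapped, at 2.06 and 1.5 in WT and 1.83 and 1.54 in the KO-labelled libraries. How these ratios differ between the groups thus depended on the denominator. The ratio of Ramp3 to the sum was 0.499 and 0.727 in WT and 0.197 in both KO-labelled libraries. The part of endothelial RNA in the values of Calcrl, Ramp2 and Ramp3 was not tested.

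**Figure D4:**
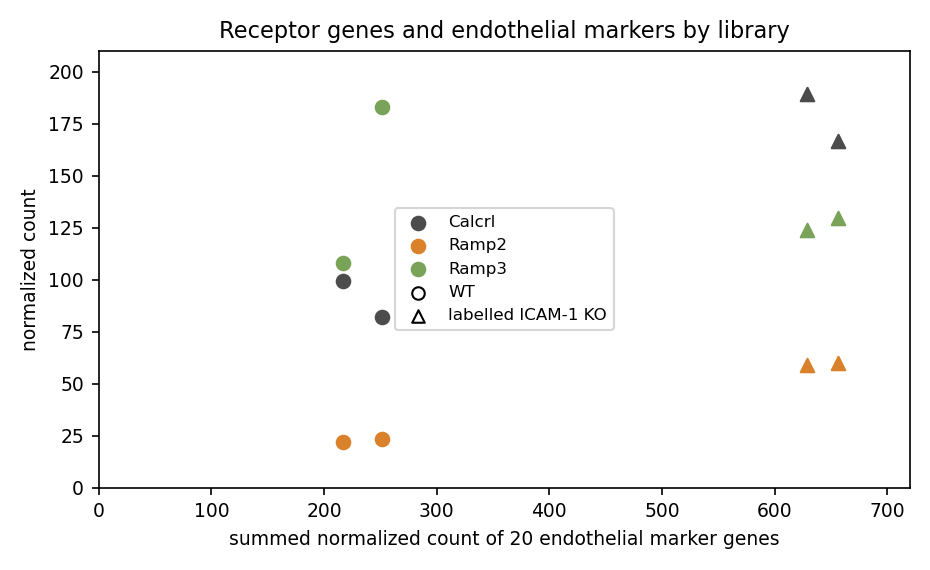
Normalized count of Calcrl, Ramp2 and Ramp3 against the summed normalized count of 20 endothelial markers, with circles for WT and triangles for KO-labelled libraries. The WT libraries lie at sums of 217 and 252 and the others at 629 and 656, and Ramp2 and Calcrl are higher at the larger sums.

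Nmur1 encodes the receptor through which neuromedin U from cholinergic neurons activates ILC2s, and its level overlapped between the groups. It lies on chromosome 1 from 86386303 to 86426228 on the minus strand. Normalized counts were 62.8 and 52.1 in WT, against 54.4 and 65.6 under the KO label. The means were 57.5 ± 7.55 and 59.99 ± 7.97 (SD, n = 2 each), with a log2 fold change of 0.092 (SE 0.146, adjusted p = 0.721, edgeR). The sign turned to -0.038 without WT replicate 2 and to -0.063 without ICAM-1 KO replicate 2, so no direction is given. Per kb, Nmur1 exceeded 86.3% of the tested genes.

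Vipr2, the gene of the second receptor for vasoactive intestinal peptide, was the main Vipr gene in these cells. Its locus is on chromosome 12 from 116077726 to 116146261 on the plus strand and overlaps the antisense gene Gm20658. Its normalized count was 86.7 and 79.3 in WT and 78.8 and 63.9 in the KO-labelled libraries. The groups came within 1 normalized count of each other without overlapping, at means of 83.0 ± 5.24 and 71.4 ± 10.5 (SD, n = 2 each), and the log2 fold change of -0.19 did not pass the test (SE 0.126, adjusted p = 0.338, edgeR).

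Vipr1, the gene of the other receptor for this peptide, was detected at low counts. Its locus is on chromosome 9 from 121642716 to 121672954 on the plus strand. Only 11 and 35 counts fell on it in WT, against 94 and 27 in KO-labelled libraries, with normalized counts of 0.396 and 1.14 against 3.30 and 0.892. The groups overlapped, and its sum was under the minimum for a test. Per kb of exon, the mean of Vipr2 over the 4 libraries was 17.3 and that of Vipr1 0.247.

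Chat, which encodes the enzyme that makes acetylcholine, had 0 counts in each of the 4 libraries. The gene spans chromosome 14 from 32408203 to 32465989 on the minus strand and overlaps Slc18a3, the gene of the acetylcholine transporter of synaptic vesicles. A count of 0 allows up to 3 counts, or 0.104 to 0.121 CPM (counts scaled to the library total) depending on the library, for counting error alone. Chat RNA was thus not detectable at this depth in either group.

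Ordered per kb of exon, the genes in WT ran from Calca through Ramp3, Ramp1, Nmur1, Vipr2, Calcrl and Ramp2 to Vipr1. In the KO-labelled libraries the order was Calca, Ramp3, Ramp1, Calcrl, Nmur1, Ramp2, Vipr2 and Vipr1. Neighbours with overlapping ranges, and so not apart beyond their spread, were Vipr2 and Calcrl in WT and Calcrl and Nmur1 in the other group. Mean levels per kb in WT were 370 for Calca, 106 for Ramp3, 69.2 for Ramp1, 33.9 for Nmur1 and 18.6 for both Vipr2 and Calcrl.

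Of 16 further neuropeptide ligand genes, 8 were analysed here and 2 were abundant enough to be tested, and neither passed the test (edgeR, 0 at an unadjusted p under 0.05, 0 called by DESeq2 or limma). Penk, the enkephalin precursor gene, was the most abundant, at 64.4 and 99.4 in WT and 60.4 and 104 in the KO-labelled libraries. Adm, the gene of adrenomedullin, the ligand of the receptors with RAMP2 and RAMP3, had 6.04 and 3.17 in WT and 5.45 and 7.71 in the KO-labelled libraries (log2 fold change 0.56, adjusted p = 0.371, edgeR). Of 14 further receptor genes, 9 had no entry in the counts used, 5 were analysed here and none of these was abundant enough to be tested. Their summed normalized count was at most 1.34 in any library, Grpr and Sstr2 were the highest of them, and Adcyap1r1, the receptor gene for the related peptide PACAP, was at 0 counts in all libraries.

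No gene of acetylcholine or noradrenaline signalling passed the test. Of 18 cholinergic genes, 12 had no entry in the counts used, 6 were analysed here and 1 was tested. The tested gene was the nicotinic receptor subunit gene Chrnb1, with 3.10 and 4.34 in WT and 7.81 and 5.32 in the KO-labelled libraries (log2 fold change 0.84, adjusted p = 0.16, edgeR). Of 19 genes of catecholamine turnover and of adrenergic or dopamine receptors, 8 had no entry in the counts used, 11 were analysed here and 5 were tested. None of the 5 was called by edgeR, DESeq2 or limma, and 4 had an unadjusted p under 0.05 (edgeR). Adra1b, an alpha receptor gene, had 4.09 and 4.08 in WT and 6.25 and 8.35 in the KO-labelled libraries (log2 fold change 0.87, adjusted p = 0.111, edgeR).

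The signalling genes that these receptors use were called about as often as all genes tested, of which 13.8% were called. The receptors for CGRP, adrenomedullin and vasoactive intestinal peptide act through Gs and cyclic AMP, and of 26 genes of this route 21 were tested, 2 were higher, none was lower and 19 did not pass the test (median log2 fold change 0.08, 6 at an unadjusted p under 0.05). The higher ones were the adenylyl cyclase gene Adcy4, at 5.68 and 11.0 in WT and 19.5 and 19.2 in the KO-labelled libraries (log2 fold change 1.24, adjusted p = 0.026, edgeR), and the kinase anchor gene Akap13, with a log2 fold change of 0.45 (adjusted p = 0.0217, edgeR). Gnas, which encodes the Gs alpha subunit, had 969 and 934 in WT and 804 and 886 in the KO-labelled libraries (adjusted p = 0.306, edgeR), and Prkar1a, a protein kinase A subunit gene, had an adjusted p of 0.752 (edgeR).

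NMUR1 acts through Gq and calcium, and all 20 genes of this route were tested, of which 3 were higher, none was lower and 17 did not pass the test (median log2 fold change 0.10). The higher ones were the phospholipase gene Plcb1, the inositol trisphosphate receptor gene Itpr3 and the transcription factor gene Nfatc3, with log2 fold changes of 1.48, 0.76 and 0.44 (adjusted p = 0.0268, 0.0342 and 0.0301, edgeR). Itpr2, the most abundant, had a log2 fold change of 0.06 (adjusted p = 0.689, edgeR). Of 15 genes that switch receptors off, 14 were tested, 1 was higher, 1 was lower and 12 did not pass the test. Rgs1, a regulator of G protein signalling, was lower, at 1554 and 1448 in WT and 1099 and 1210 in the KO-labelled libraries (log2 fold change -0.35, adjusted p = 0.0358, edgeR), Rgs3 was higher (log2 fold change 0.59, adjusted p = 0.0388, edgeR) and Rgs2 had an adjusted p of 0.486 (edgeR). These 7 calls were near the threshold: 7 were lost without a filter on low counts, 3 with the filterByExpr filter of edgeR, 5 without WT replicate 1, 6 without WT replicate 2, 4 without ICAM-1 KO replicate 1 and 2 without ICAM-1 KO replicate 2.

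**Figure D5:**
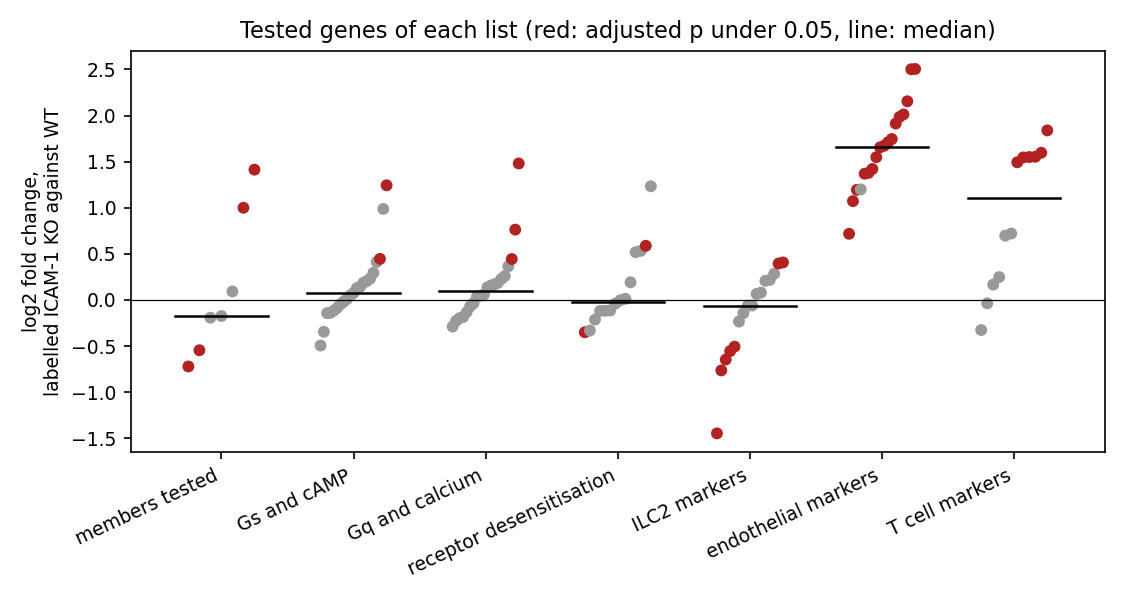
Log2 fold change of each tested gene of 7 lists, KO-labelled libraries against WT, with calls at an adjusted p under 0.05 in red and a line at the median. The medians of the Gs and Gq lists lie at 0.08 and 0.10, and that of the endothelial markers at 1.66.

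Markers of other lung cells also moved in these libraries, and their part in the values above was not tested. Of the tested T cell markers 6 of 12 were higher (summed normalized count 614 to 739 in WT and 1084 to 1282 in the KO-labelled libraries), led in level by Trbc2, Trac and Foxp3. Of the epithelial markers 7 of 11 tested were higher (282 to 489 against 725 to 1614), with Scgb1a1, Sftpc and Sftpa1 most abundant. Of the B cell markers 5 of 9 were higher (1602 to 4011 against 6665 to 10158), with Ighm, Igkc and Jchain most abundant. Of the myeloid markers 10 of 13 were higher (527 to 542 against 944 to 1112), led by Lyz2, Ccr2 and S100a9. Of the mast cell and granulocyte markers 4 of 12 were higher and 2 lower (1284 to 1581 against 1667 to 2130), led in level by Cma1, Cpa3 and Tpsb2. The 2 lower were the eosinophil granule genes Epx and Prg2, and the higher ones included Ccr3 and Il5ra. Epx had 1027 and 739 counts in WT and 0 in both KO-labelled libraries, and Prg2 had a log2 fold change of -4.06. Of the mesenchymal markers, led by Col3a1, Col1a2 and Col1a1, none of 4 was called by edgeR, DESeq2 or limma and 1 had an unadjusted p under 0.05 (15.0 to 46.0 against 37.4 to 77.3). Genes named as most abundant were not always called: Trbc2, Scgb1a1, Igkc, Jchain, Ccr2 and Cpa3 did not pass the test (edgeR).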

How the data were processed

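RNA of 4 libraries of sorted lung ILC2s was analysed, 2 of each genotype by the labels. The authors aligned reads with STAR to mm10 and deposited expected counts per gene, estimated with Partek, and a normalized signal per gene made by upper quartile scaling. Each normalized value equals the count plus 1 times 1 factor per library (0.0317 to 0.0347). Whether counting used strand is not given in the sources used here. The labels do not say how the pools differ, so p-values measure the spread between libraries. The reads carry no molecular identifiers and can repeat 1 molecule, so floors of 3 counts cover counting error only.

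After rounding the expected counts to whole numbers, the test was run in edgeR 4.0.16 (glmQLFit with legacy set to FALSE, glmQLFTest, upper quartile factors) in R 4.3.3 on 11711 genes, leaving out those whose normalized count averaged under 1 or summed to under 10. Benjamini-Hochberg adjustment covered all of them, with a threshold of 0.05. The study's own test, GSA in Partek, was not run. Means and SDs are over normalized counts. Exon lengths come from GENCODE M21, whose coordinates matched 22036 of 22558 genes. The tests were checked on simulated counts.

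The members and lists (neuropeptide ligands and receptors, cholinergic, adrenergic, Gs, Gq and desensitisation genes, and markers of ILC2s, endothelium, neuroendocrine cells and neurons, epithelium, T cells, B cells, myeloid cells, mast cells and granulocytes, and mesenchyme) were chosen with earlier results of these data known. Named are the 9 genes, Icam1, up to 4 called genes and the 2 most abundant of each pathway list, the 3 most abundant of each marker list, genes at 0, and the 3 tested genes nearest to Calca and to Ramp2. Gata3, Il1rl1, Il13, Il2ra, Klrg1, Ptprc, Calcb, Vps25, Epx, Prg2, Ccr3 and Il5ra were named after their values were seen. Some genes that this rule takes are not reported here. Alternatives were TMM factors, DESeq2 1.42.0, limma 3.58.1 on log2 of the normalized count plus 1, 3 other filters, the older quasi-likelihood form, a replicate block and leaving out each library.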

Additional observations from a re-analysis of the deposited data

How the results depend on the processing

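Without a filter on low counts, 22158 genes were tested in place of 11711, and 2 of the 9 genes were called in place of 4, with 273 genes at least 2-fold higher and 39 lower in place of 578 and 63. With 1 library left out, 3 to 4 of the genes were called, and 338 to 596 genes were higher and 48 to 80 lower at 2-fold. Log2 fold changes then ran from -0.96 to -0.43 for Calca, from -0.64 to -0.44 for Ramp1, from -0.50 to 0.25 for Ramp3 and from -0.063 to 0.23 for Nmur1, the last 2 turning sign (Nmur1 at -0.038 without WT replicate 2 and -0.063 without ICAM-1 KO replicate 2, Ramp3 at 0.25 without WT replicate 2). Calls that needed a particular WT library were those of Calca (replicate 2) and Ramp1 (replicate 1), and the cause was not tested. Where a group was left with 1 library, it was taken to vary like the other group. The calls of Calcrl and Ramp2 held under all 12 alternatives, and Vipr2 was not called under any. Under looser filters Vipr1 had log2 fold changes of 1.42, 1.43 and 1.46 (adjusted p = 0.408, 0.318 and 0.218, edgeR). Replicates with the same number did not deviate together over all genes (correlation -0.058). This value cannot show whether part of the genes shared a batch, so pairing by number is neither claimed nor excluded. With the replicate block 4 of the 9 genes were called, 601 genes were higher and 67 lower at 2-fold. With 2 libraries a group, differences smaller than the spread between pools could not be seen, and genes with few counts, such as Vipr1 and Chat, were limited by depth.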
